A study of Mus musculus with 18 samples.

Results

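The proliferins are a group of near-identical mouse genes of the prolactin family, and the 4 copies listed in the deposited tables, Prl2c2, Prl2c3, Prl2c4 and Prl2c5, are described here in cancer cells grown with fibroblasts. The copies were found by symbol, and 4 of the 24455 genes in the table of one cancer line and 4 of the 24532 in the table of the other were matched. They were chosen because Prl2c4 rose in LLC1 cocultures over LLC1 alone, so the LLC1 values against cells alone are given as a description with no test. Since reads may be assigned to one copy or another, each copy is given per library and the reads of the copies were also summed.

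Proliferins are secreted glycoproteins that were found as a transcript induced by serum in mouse fibroblasts and that are made in quantity by trophoblast giant cells of the placenta. They act on endothelial cells to promote blood vessel growth, and binding to the mannose phosphate and insulin-like growth factor receptor encoded by Igf2r has been described for them. Transcription of proliferin genes is known to respond to growth factors and to the AP-1 factors of the Fos and Jun families.

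RNA was sequenced from GFP-tagged cancer cells sorted from hanging drop spheroids that had been kept for a week. 168FARN, a mouse breast cancer line, was grown alone, with WT MMTV-CAFs or with sgPrrx1 MMTV-CAFs, which are cancer-associated fibroblasts from tumours of MMTV-PyMT mice. LLC1, a mouse lung cancer line, was grown alone, with WT wound healing fibroblasts or with sgPrrx1 wound healing fibroblasts, which came from dorsal skin on day 10 after wounding. Cocultures held 3 fibroblasts per cancer cell. WT fibroblasts carried a control guide RNA (sgNS), and sgPrrx1 fibroblasts had the transcription factor gene Prrx1 deleted with CRISPR/Cas9, while the cancer cells of all groups kept the gene. There were 3 libraries per group and line, 18 in all, and nothing states that replicates came from separate cultures, so p-values measure the spread between these libraries, which may be technical. Cancer line, fibroblast type and count table differ together and cannot be told apart, and libraries of fibroblasts by themselves were not analysed here. The study's text in one place also speaks of GFP in the fibroblasts.

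The 168FARN libraries held 48315037 to 68933002 counts each and the LLC1 libraries 66129117 to 103997557. Over all genes the biological coefficient of variation was lower in 168FARN (0.0728) than in LLC1 (0.228). The LLC1 sgPrrx1 replicate 3 library stood apart from its replicates over all genes, and the tests of the copies between the LLC1 cocultures are given with and without it. In cells alone, the epithelial markers Epcam, Krt19, Cldn3 and Cldn7 were at 0 counts in both lines, while the keratin gene Krt8 was at 331 ± 12.5 CPM (SD, n = 3) in 168FARN and at 0.0499 ± 0.0865 CPM in LLC1.

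In RefSeq annotation of GRCm38.p6, 3 of the copies lie on chromosome 13. Prl2c3 spans 12790816 to 12800093, Prl2c2 spans 12996120 to 13005393 and Prl2c5 spans 13182703 to 13191930. Prl2c4 is listed there as a synonym of Prl2c3, with no position of its own. The 23 other prolactin family genes of the same chromosome lie apart from them, between 27057570 and 28151595.

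The copies are shown next by sequence, because their likeness decides how far reads can be assigned to one of them. In GENCODE transcripts, Prl2c2 and Prl2c3 were both 850 bases long and differed at 4 bases, an identity of 99.5%. Over their coding sequence of 675 bases they differed at 3 bases, T14C, C200A and T319G, where the base of Prl2c2 stands before the position and that of Prl2c3 after it, and positions are counted from 1 at the start codon. Each difference is shown within 31 bases, with the differing base in capitals.
Prl2c2, bases 1 to 31: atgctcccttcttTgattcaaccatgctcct
Prl2c3, bases 1 to 31: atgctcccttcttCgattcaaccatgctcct
Prl2c2, bases 185 to 215: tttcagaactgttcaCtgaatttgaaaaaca
Prl2c3, bases 185 to 215: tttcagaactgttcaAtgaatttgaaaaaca
Prl2c2, bases 304 to 334: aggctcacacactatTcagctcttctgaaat
Prl2c3, bases 304 to 334: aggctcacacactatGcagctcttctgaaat

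Prl2c5 was less alike, with 28 substitutions and 8 gap bases against the Prl2c2 transcript and an identity of 95.8%. Its 60 coding bases with the most differences from Prl2c2 hold 7, in capitals.
Prl2c2, bases 306 to 365: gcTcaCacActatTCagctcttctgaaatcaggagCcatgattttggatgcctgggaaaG
Prl2c5, bases 306 to 365: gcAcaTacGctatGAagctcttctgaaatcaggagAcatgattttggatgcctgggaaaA

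Of the 751 windows of 100 bases, the length of a read, in the Prl2c2 transcript, 471 or 62.7% were found without a change in Prl2c3. Of the 745 windows of Prl2c5, 724 or 97.2% were found in neither of the other copies. Reads from Prl2c2 and Prl2c3 could therefore be told apart in part of the transcript only, and reads from Prl2c5 nearly throughout. No transcript of Prl2c4 was used here.

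The first question was how far the copies changed when 168FARN cells were grown with fibroblasts. The summed copies rose with WT fibroblasts and were higher still with sgPrrx1 fibroblasts. In CPM, the counts scaled to a common library size by TMM, the sum was 152, 149 and 147 in the 3 libraries alone, 330.4, 332 and 361 in WT coculture and 835, 848 and 842 in sgPrrx1 coculture. The 3 groups lay apart with no overlap, and the spread within each was small against the distance between them.

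The means were 149 ± 2.47 CPM in cells alone, 341 ± 17.1 CPM with WT fibroblasts and 842 ± 6.72 CPM with sgPrrx1 fibroblasts (SD, n = 3 each). From alone to WT coculture the log2 fold change of the sum was 1.19 (SE 0.0330), a 2.29-fold rise, with an adjusted p of 2.40e-10 in edgeR. With sgPrrx1 fibroblasts the rise over cells alone was 5.64-fold, a log2 fold change of 2.50 (SE 0.0344) with an adjusted p of 2.37e-12 in edgeR. Changes were common in this line, since 64.1% of all genes tested passed the same threshold (adjusted p under 0.05) in WT coculture against alone and 49.7% in sgPrrx1 coculture against alone.

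The second question was whether deletion of Prrx1 in the fibroblasts altered the level in the cancer cells. The sum was 2.47-fold higher in sgPrrx1 than in WT coculture, or 1.30 on the log2 scale (SE 0.0330, 95% interval 1.22 to 1.38) and an adjusted p of 4.03e-10 in edgeR. Of all genes tested, 60.0% passed in this comparison, 3649 higher and 4481 lower. The median log2 fold change over all genes was -0.03. The level with sgPrrx1 fibroblasts thus did not lie between those of cells alone and of WT coculture but above both.

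**Figure D1:**
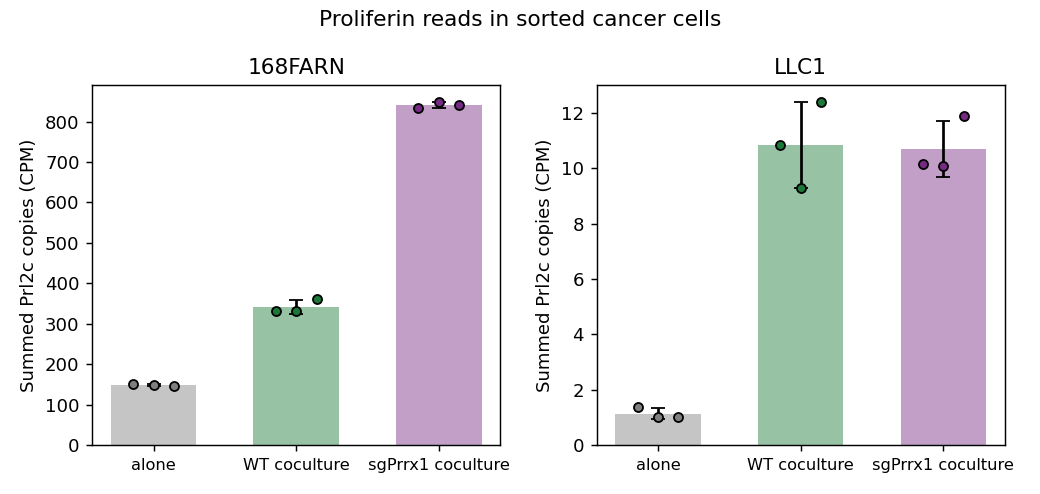
Summed Prl2c copies in CPM for the 3 groups of each line, with bars at the mean, error bars of 1 SD and a point for each of the 3 libraries. In 168FARN the groups step up from 149 to 341 to 842 CPM, while in LLC1 both cocultures sit near 11 CPM above cells alone at 1.14 CPM; the vertical axes differ.

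Prl2c2 took the largest part of the reads in 168FARN, 54.9% to 59.1% of the sum in the 9 libraries. Its transcript has the length of Prl2c3, so CPM values of these copies do not differ through length. Reads from the sequence they share could be counted to either. It was at 87.7, 87.9 and 86.6 CPM in cells alone, 184, 189 and 198 CPM with WT fibroblasts and 462, 468 and 468 CPM with sgPrrx1 fibroblasts. It followed the sum, with no overlap between groups. On the log2 scale it rose by 1.12 (SE 0.0307, adjusted p = 2.32e-10 in edgeR) with WT fibroblasts against alone, and by a further 1.29 (SE 0.0307, adjusted p = 2.24e-10) with sgPrrx1 against WT fibroblasts.

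Prl2c3 and Prl2c4 could not be read separately. In 8 of the 9 libraries of 168FARN, Prl2c4 had 1 to 5 counts and Prl2c3 between 3065 and 22675. In the library alone replicate 3 the reads were on the other symbol, with 310 counts for Prl2c3 and 2585 for Prl2c4. Added together, the pair was at 63.0, 60.4 and 59.6 CPM in cells alone, 146, 143 and 162 CPM with WT fibroblasts and 371, 379 and 373 CPM with sgPrrx1 fibroblasts. The library that stood out for each symbol did not stand out for their sum.

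The tests of Prl2c3 by its own symbol carried that library's spread. From WT to sgPrrx1 coculture it did not pass, at a log2 fold change of 1.31 (SE 0.538, adjusted p = 0.0545 in edgeR). Without alone replicate 3 the value was 1.32 (SE 0.0465) with an adjusted p of 3.12e-08, and with the reads of Prl2c3 and Prl2c4 added it was 1.31 (SE 0.0449) with an adjusted p of 3.10e-09. Against cells alone, Prl2c3 passed with both kinds of fibroblast, at 1.80 (SE 0.551, adjusted p = 0.0142 in edgeR) for WT and 3.11 (SE 0.576, adjusted p = 0.00104) for sgPrrx1. With the pair added, these changes were 1.30 and 2.62. Prl2c4 did not pass the filter on low counts in 168FARN and was not tested.

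**Figure D2:**
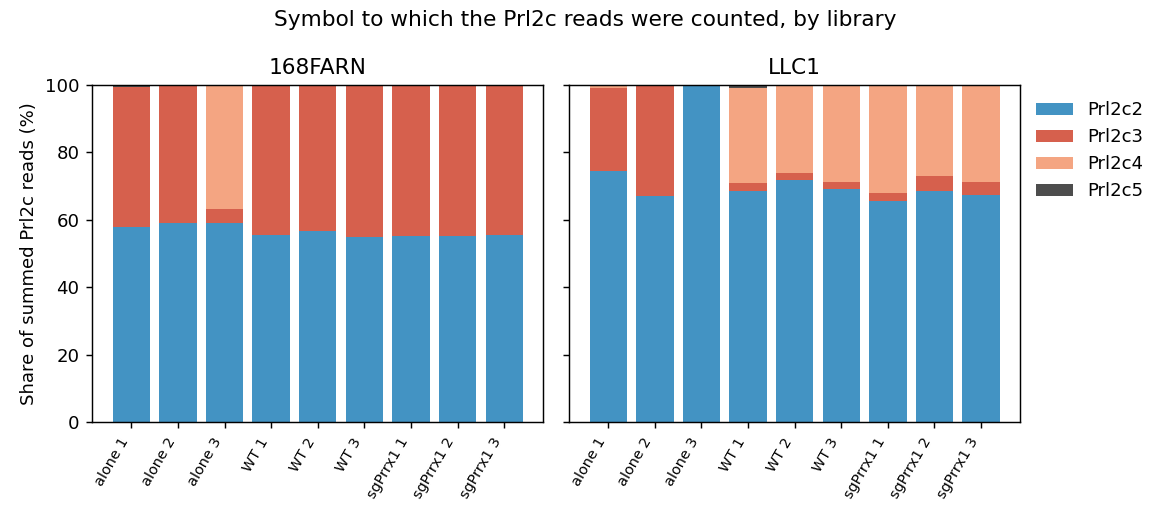
Share of the summed Prl2c reads, in percent, counted to each of the 4 symbols in each of the 18 libraries. Prl2c2 holds at least 54.9% in every library, and the rest sits on Prl2c3 or on Prl2c4 depending on the library; in 168FARN alone replicate 3 and in the 6 LLC1 cocultures it is mainly on Prl2c4.

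Prl2c5 was rare, below 1% of the sum in every 168FARN library. It was at 1.01, 0.389 and 0.680 CPM in cells alone, 0.753, 0.599 and 0.467 CPM with WT fibroblasts and 1.50, 1.17 and 1.96 CPM with sgPrrx1 fibroblasts. Alone and WT coculture overlapped, and sgPrrx1 coculture lay above both. From WT to sgPrrx1 coculture it rose by a log2 fold change of 1.33 (SE 0.331, adjusted p = 0.00487 in edgeR), and against cells alone by 1.19 (SE 0.334, adjusted p = 0.0125). The latter was 0.97 with an adjusted p of 0.0593 without sgPrrx1 replicate 3. In WT coculture against alone its log2 fold change was -0.14 (SE 0.359, 95% interval -1.02 to 0.74), with an adjusted p of 0.744. In all, 2 of the 3 copies tested passed in WT coculture against alone, where 64.1% of all genes did, 3 of 3 in sgPrrx1 coculture against alone (49.7% of all genes) and 2 of 3 in sgPrrx1 against WT coculture (60.0%).

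The ratio of reads counted to the main copies moved little while their level moved much. Much of their sequence is shared and the treatment of shared reads is not known. The ratio may therefore reflect the counting as well as the copies. Reads of Prl2c3 and Prl2c4 together, per read of Prl2c2, were 0.718, 0.688 and 0.689 alone, 0.795, 0.760 and 0.818 in WT coculture and 0.803, 0.811 and 0.796 in sgPrrx1 coculture. The cells alone lay below the cocultures, and the cocultures overlapped. No test was made of this ratio.

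**Figure D3:**
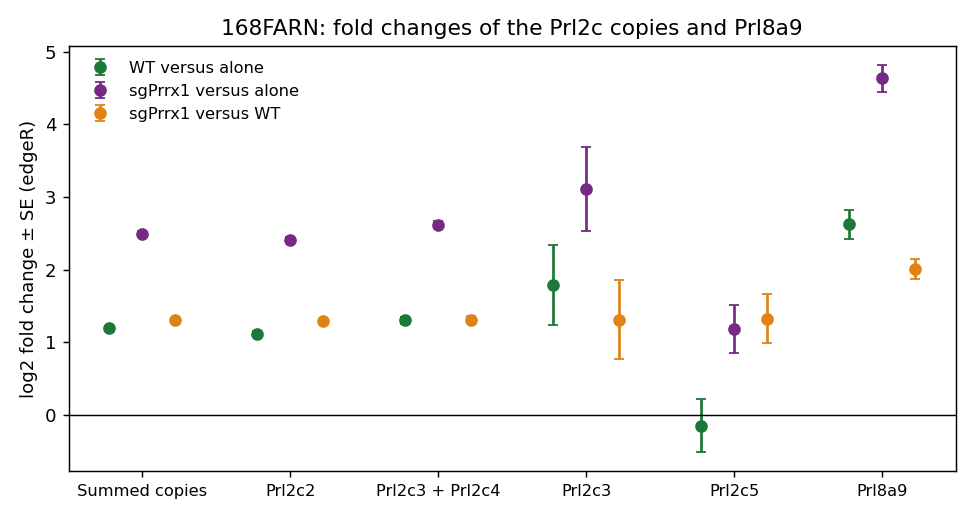
Log2 fold changes with their SE from edgeR in 168FARN for the summed copies, Prl2c2, Prl2c3 and Prl2c4 added, Prl2c3 by its own symbol, Prl2c5 and Prl8a9, in the 3 comparisons. The summed copies are at 1.19, 2.50 and 1.30, the wide bars of Prl2c3 narrow once Prl2c4 is added, and Prl2c5 is near 0 in WT coculture against alone.

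In LLC1 the copies were far lower, and they were higher in coculture with either kind of fibroblast. The sum was 1.37, 1.01 and 1.03 CPM in cells alone, 10.8, 9.30 and 12.4 CPM with WT fibroblasts and 10.2, 10.1 and 11.9 CPM with sgPrrx1 fibroblasts. Both cocultures lay above cells alone in every library, and they overlapped with each other. The means were 1.14 ± 0.206 CPM in cells alone, 10.8 ± 1.55 CPM with WT fibroblasts and 10.7 ± 1.02 CPM with sgPrrx1 fibroblasts (SD, n = 3 each).

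As the copies were chosen from these contrasts, the rise over cells alone, 9.54-fold in WT and 9.43-fold in sgPrrx1 coculture by mean CPM, is a description. By summed counts, 2495 in WT coculture against 272 alone, the ratio of library-scaled counts was 9.54, with a 95% interval of 8.41 to 10.8 that covers counting error only. For orientation, 8.83% of all genes tested in LLC1 passed the threshold in WT coculture against alone and 4.32% in sgPrrx1 coculture against alone.

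The size of the rise differed between symbols. Prl2c2 had 82, 55 and 80 counts alone, 598, 504 and 636 in WT coculture and 706, 588 and 467 in sgPrrx1 coculture, and its mean CPM rose 8.31-fold and 7.91-fold over cells alone. Prl2c4 had 1, 0 and 0 counts alone, 244, 184 and 264 in WT coculture and 341, 231 and 197 in sgPrrx1 coculture. Prl2c3 had 27, 27 and 0 counts alone, 21, 14 and 21 in WT coculture and 26, 39 and 28 in sgPrrx1 coculture. In cells alone the reads of the pair were thus on Prl2c3, and in coculture mainly on Prl2c4.

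For Prl2c4 by its own symbol the ratio of scaled counts to cells alone was 719 (95% counting interval 129 to 28453) in WT coculture and 738 (132 to 29172) in sgPrrx1 coculture, both against a single count. With Prl2c3 added the ratio was 14.1 (10.7 to 18.9) in WT coculture, from 748 counts against 55, and 15.0 (11.4 to 20.1) in sgPrrx1 coculture, from 862 against 55. The rise of the pair was thus far smaller than that listed for Prl2c4, and nearer to that of Prl2c2. Alone replicate 3 had no read of the pair among 80 reads of the copies.

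Per read of Prl2c2, the pair had 0.341, 0.491 and 0 reads in LLC1 alone, 0.443, 0.393 and 0.448 in WT coculture and 0.520, 0.459 and 0.482 in sgPrrx1 coculture. The first library of cells alone rested on 28 reads of the pair and the second on 27. All 9 values lay below those of 168FARN. Prl2c5 was detected in 3 of the 9 LLC1 libraries, with 9 counts in WT replicate 1, 5 in sgPrrx1 replicate 1 and 2 in sgPrrx1 replicate 3, and was not tested.

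Whether Prrx1 in the fibroblasts mattered for the level in LLC1 could be tested, since that comparison did not choose the copies. The log2 fold change of the sum from WT to sgPrrx1 coculture was -0.02 (SE 0.158), with an adjusted p of 0.967 in edgeR. Its 95% interval ran from -0.41 to 0.37, that is, from 0.755-fold to 1.29-fold. Without sgPrrx1 replicate 3 the value was -0.10 (SE 0.139, adjusted p = 0.664). None of the 3 copies tested passed in edgeR, and their unadjusted p values were 0.690 for Prl2c2, 0.444 for Prl2c3 and 0.860 for Prl2c4. The log2 fold change of Prl2c2 was -0.07 (SE 0.177, adjusted p = 0.878 in edgeR), that of Prl2c3 was 0.68 (SE 0.847, adjusted p = 0.762) and that of Prl2c4 was 0.04 (SE 0.240, adjusted p = 0.947). Without sgPrrx1 replicate 3 these values were -0.16 for Prl2c2, 0.52 for Prl2c3 and -0.02 for Prl2c4, and none of them passed. In edgeR 0.0544% or 7 of all genes tested passed here and 1545 had an unadjusted p under 0.05, while the alternatives gave between 2 and 4681 genes.

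The effect of sgPrrx1 against WT fibroblasts differed between the experiments. The difference, 168FARN minus LLC1, was 1.34 on the log2 scale (SE 0.150), with an adjusted p of 2.35e-05 by the interaction term in edgeR, where 19.3% of 14366 genes passed. Without LLC1 sgPrrx1 replicate 3 it was 1.43 (SE 0.136, adjusted p = 9.87e-07). Ordered by mean CPM, the groups ran from LLC1 alone to LLC1 sgPrrx1 and LLC1 WT coculture and then to 168FARN alone, WT and sgPrrx1 coculture. The LLC1 cocultures were the only neighbours in that order that overlapped. The tables were scaled separately, so levels across the lines are set side by side only.

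Promoter sequence could be compared for 2 of the copies. RefSeq promoters of GRCm38.p6 were matched for Prl2c3 and Prl2c5, and none was used for Prl2c2 and Prl2c4. The start meant here is that of the promoter table, which lies a few bases inside the annotated span of either gene. The 250 bases before the start were 96.0% identical, with 8 substitutions and 2 gap bases. Both strands were searched for TGANTCA (a loose form of the AP-1 site, with N for any base), TGACGTCA (the cyclic AMP response element) and TATANAA (the TATA box), and matches are in capitals.
Prl2c3, chr13:12800080-12800329, minus strand: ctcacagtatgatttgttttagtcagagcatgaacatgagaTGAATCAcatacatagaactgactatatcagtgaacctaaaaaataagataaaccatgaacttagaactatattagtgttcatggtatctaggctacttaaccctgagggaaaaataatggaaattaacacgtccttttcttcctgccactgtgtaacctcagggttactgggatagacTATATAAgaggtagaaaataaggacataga
Prl2c5, chr13:13182466-13182715, plus strand: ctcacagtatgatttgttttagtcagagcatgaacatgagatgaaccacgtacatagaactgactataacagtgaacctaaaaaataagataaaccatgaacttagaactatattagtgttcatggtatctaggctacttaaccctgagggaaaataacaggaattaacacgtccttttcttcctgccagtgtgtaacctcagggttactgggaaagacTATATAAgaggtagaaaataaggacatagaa

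A TATA box was matched in both, from -30 in Prl2c3 and from -31 in Prl2c5, counted from the start. The AP-1 letters were matched from -209 to -203 in Prl2c3, with A at the free base, and not in Prl2c5, which has the change T5C within those 7 letters, counted from the first of them. Over 32851 promoters of the same length, 6.75% held the AP-1 letters, 1.55% the cyclic AMP response element and 10.4% the TATA letters. A match is a description of the letters and not of binding.

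Of the 24 other genes of the prolactin family, 2 could be tested in 168FARN. Prl8a9, a placental member, was the 1 of these that passed, in every comparison, where 64.1%, 49.7% and 60.0% of all genes did. It was at 0.226, 0.265 and 0.185 CPM in cells alone, 1.65, 1.31 and 1.28 CPM with WT fibroblasts and 5.74, 5.78 and 5.64 CPM with sgPrrx1 fibroblasts. These groups, too, lay apart in the order of the proliferin sum. It rose by 2.62 on the log2 scale (SE 0.200, adjusted p = 6.51e-07 in edgeR) with WT fibroblasts against alone and by 2.01 (SE 0.137, adjusted p = 4.00e-07) with sgPrrx1 against WT fibroblasts. The growth hormone gene Gh was the other one tested and did not pass in any comparison, with log2 fold changes of 0.91, 0.78 and -0.13. Prolactin itself (Prl) had 0 counts in all libraries of both lines. In LLC1 none of the 24 genes could be tested, and Prl8a9 had 0 counts in all 9 libraries.

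Of the genes for receptors, Prlr, the prolactin receptor, had 0 counts in all 18 libraries. Igf2r was at 73.6 ± 1.81 CPM in cells alone, 77.6 ± 1.13 CPM with WT fibroblasts and 58.0 ± 2.18 CPM with sgPrrx1 fibroblasts of 168FARN (SD, n = 3). From WT to sgPrrx1 fibroblasts it fell by 0.42 on the log2 scale (adjusted p = 1.47e-06 in edgeR), where the proliferin sum rose. M6pr, the smaller mannose phosphate receptor, rose by 0.13 (adjusted p = 0.000595 in edgeR) and Ghr, the growth hormone receptor, by 0.56 (adjusted p = 0.0380) in the same comparison, where 60.0% of all genes passed. Ghr overlapped between these groups, at 100, 157 and 93.4 CPM with WT fibroblasts and 200, 119 and 198 CPM with sgPrrx1 fibroblasts. In LLC1 none of these passed in any comparison by edgeR, at unadjusted p values down to 0.0121 for M6pr. DESeq2 called 1 of them in each coculture against alone, and voom with quality weights 3.

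The list of AP-1 and serum response genes held 12 genes, and its direction was not that of the proliferins throughout. In 168FARN, 12 of 12 rose in WT coculture against alone, 11 rose and 1 fell in sgPrrx1 coculture against alone, and 9 fell and none rose in sgPrrx1 against WT coculture. Over all genes tested, 64.1%, 49.7% and 60.0% passed in these comparisons. The medians were 0.57, 0.40 and -0.23, against medians of 0.01, 0.00 and -0.03 over all genes tested. Egr1, an early growth response factor, was at 10.9 ± 0.533 CPM in cells alone, rose to 68.8 ± 4.05 CPM with WT fibroblasts (adjusted p = 1.42e-11 in edgeR) and fell to 21.2 ± 0.220 CPM with sgPrrx1 fibroblasts (adjusted p = 8.91e-10). Atf3, a stress-induced factor, rose by 3.82 on the log2 scale and then fell by 2.10, so that sgPrrx1 coculture was at 1.72 against cells alone. Fos rose by 0.24 and fell by 0.83, which left it at -0.59 against cells alone.

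Fos was the 1 gene of the list that fell in 168FARN sgPrrx1 coculture against alone. It was at 85.9, 83.3 and 80.6 CPM in 168FARN alone, 98.1, 99.8 and 97.2 CPM with WT fibroblasts and 54.8, 56.1 and 54.8 CPM with sgPrrx1 fibroblasts, so its lowest group was the group in which the proliferin sum was highest. Fosl1 was at 171, 235 and 250 CPM on average in these groups, the order of the proliferin sum. Between the cocultures Fosl1 did not pass (adjusted p = 0.208 in edgeR). Jun was at 222, 336 and 289 CPM, highest with WT fibroblasts. In LLC1, 5 of the 12 fell and none rose in each coculture against alone, where the proliferin sum was higher and 8.83% (WT) and 4.32% (sgPrrx1) of all genes passed. Fos there was at 192 ± 2.58 CPM in cells alone, 55.1 ± 1.85 CPM with WT fibroblasts and 63.1 ± 8.46 CPM with sgPrrx1 fibroblasts, and it fell by 1.80 (adjusted p = 0.000220 in edgeR) and fell by 1.60 (adjusted p = 0.000633) on the log2 scale against cells alone. Without sgPrrx1 replicate 3, 9 of the 12 passed in WT coculture and 8 in sgPrrx1 coculture against alone. Between the LLC1 cocultures, where 0.0544% of all genes passed, 0 of 12 passed in edgeR and 1 in DESeq2, with Fosb at an unadjusted p of 0.00386, 3 passed without that library and 6 in voom with quality weights.

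Growth factor receptor genes, 8 in the list, rose for 6 and fell for 1 in 168FARN with WT fibroblasts against alone, where 64.1% of all genes passed. They rose for 1 and fell for 6 in sgPrrx1 coculture against alone (49.7% of all genes), and fell for 7 and rose for none in sgPrrx1 against WT coculture (60.0%). Egfr, the receptor of epidermal growth factor, had 0 counts alone, 2.53 ± 0.208 CPM with WT fibroblasts and 0.0139 ± 0.0241 CPM with sgPrrx1 fibroblasts. Of 7 tested in LLC1, 2 fell in WT coculture against alone (8.83% of all genes passed), 1 fell in sgPrrx1 coculture against alone (4.32%), and between the cocultures (0.0544%) 0 passed in edgeR and up to 5 in the alternatives. Against cells alone the alternatives called 2 to 5 in WT coculture and 0 to 5 in sgPrrx1 coculture.

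Since proliferins are known from the placenta, a list of placental and trophoblast markers was examined beside them. Of 20 listed genes, 19 were in the table and 6 could be tested in 168FARN, and 6 rose in WT coculture against alone, 3 in sgPrrx1 coculture against alone (1 without alone replicate 3), and 3 fell in sgPrrx1 against WT coculture. The shares of all genes that passed in these comparisons were 64.1%, 49.7% and 60.0%. Plac1, a placental gene, was at 0.162, 1.41 and 0.671 CPM on average, and fell by 1.06 on the log2 scale from WT to sgPrrx1 coculture (adjusted p = 0.00200 in edgeR). Tpbpa and Ctsq, which mark spongiotrophoblast and giant cells, and the trophoblast factor Elf5 were at 0 counts in 168FARN throughout. The summed level of the list was 22.7 to 24.1 CPM in cells alone, 32.3 to 35.3 CPM in WT coculture and 26.1 to 27.4 CPM in sgPrrx1 coculture. In LLC1, 1 of 4 tested passed in WT coculture against alone, where 8.83% of all genes did, and 0 in the other comparisons. It was Plac1, at 0.67 (adjusted p = 0.0421 in edgeR), and at 0.68 (adjusted p = 0.0583) in sgPrrx1 coculture against alone. The alternatives called 0 to 2 of the list in WT coculture.

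Markers of fibroblasts moved with the groups in 168FARN, and most of them in another order than the proliferins. The summed level of 18 markers was 506 to 764 CPM in cells alone, 1643 to 1890 CPM in WT coculture and 614 to 802 CPM in sgPrrx1 coculture. Of 15 tested, 12 rose and 1 fell in WT coculture against alone, with a median log2 fold change of 4.86. In sgPrrx1 coculture against alone 10 rose and 1 fell, with a median of 1.16, and in sgPrrx1 against WT coculture 2 rose and 12 fell, with a median of -2.67. Over all genes tested, 64.1%, 49.7% and 60.0% passed in the same order. Col1a1, a collagen gene, was at 3.74 ± 0.360 CPM in cells alone, 161 ± 11.5 CPM with WT fibroblasts and 10.4 ± 0.207 CPM with sgPrrx1 fibroblasts. Dcn, which encodes the matrix proteoglycan decorin, was at 0.275 ± 0.0769 CPM in cells alone, 92.8 ± 3.13 CPM with WT fibroblasts and 43.3 ± 1.27 CPM with sgPrrx1 fibroblasts. Both genes were thus lower with sgPrrx1 than with WT fibroblasts and still above cells alone. Postn, the periostin gene, had 0 counts alone, 22.1 ± 0.891 CPM with WT fibroblasts and 0.0223 ± 0.0386 CPM with sgPrrx1 fibroblasts. The fibroblast markers Fap and Tcf21 were at 0 in both 168FARN cocultures. The 2 markers that rose from WT to sgPrrx1 coculture were Twist1, by 0.11 (adjusted p = 0.0108 in edgeR), and Twist2, by 0.51 (adjusted p = 1.61e-07). From cells alone to WT coculture Twist1 rose by 0.20 (adjusted p = 0.00018 in edgeR) and Twist2 was at -0.09. Twist1 thus followed the order of the proliferin sum.

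In sgPrrx1 coculture, where the proliferin sum was highest, most of the tested markers were below their level in WT coculture and above that in cells alone, and their part in the rise of the sum was not tested. RNA from more fibroblasts in the sort and more of it per cell cannot be told apart in such libraries. In LLC1 the summed marker level was 2057 to 2129 CPM in cells alone, 1669 to 1844 CPM in WT coculture and 1924 to 2189 CPM in sgPrrx1 coculture. There Col1a1 was at 0.375 ± 0.141, 8.60 ± 1.77 and 0.681 ± 0.147 CPM in these groups, a fall of 3.67 on the log2 scale between the cocultures (adjusted p = 0.00540 in edgeR), while the proliferin sum overlapped between them. Of 14 markers tested in LLC1, 4 rose and 2 fell in WT coculture against alone (8.83% of all genes passed), 3 rose and 1 fell in sgPrrx1 coculture against alone (4.32%), and 3 fell between the cocultures (0.0544%). Without sgPrrx1 replicate 3, 11 passed in WT coculture against alone, 6 in sgPrrx1 coculture against alone and 4 between the cocultures. Over all alternatives these numbers ran from 4 to 14, from 1 to 8 and from 1 to 8.

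**Figure D4:**
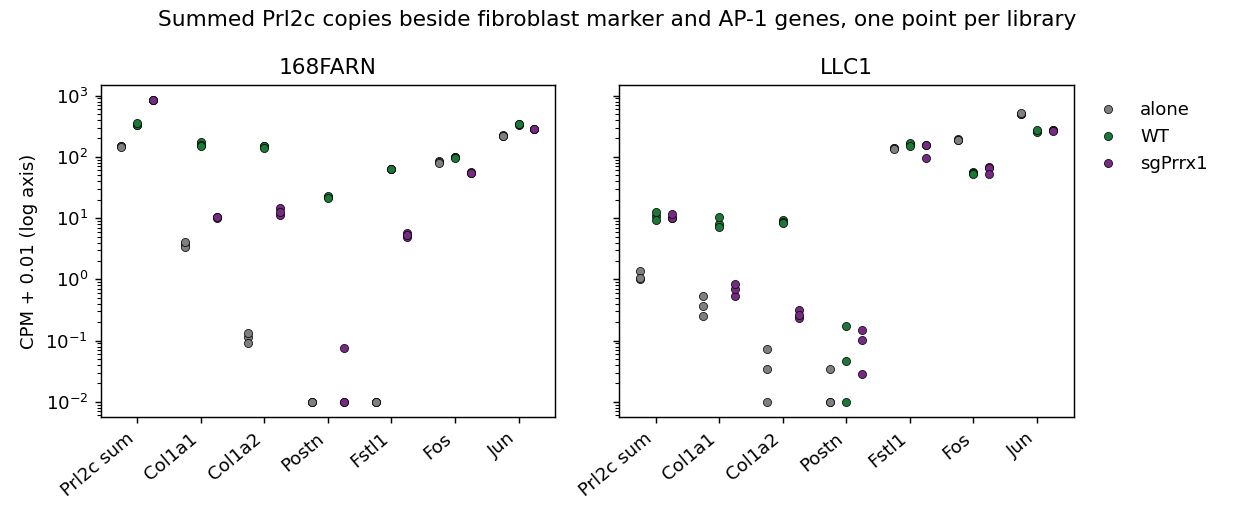
CPM plus 0.01 on a log axis in each library for the summed Prl2c copies, the fibroblast markers Col1a1, Col1a2, Postn and Fstl1, and the AP-1 genes Fos and Jun. In 168FARN the 4 fibroblast markers peak in WT coculture and the proliferin sum in sgPrrx1 coculture, and in LLC1 Col1a1 and Col1a2 fall between the cocultures while the proliferin sum overlaps.

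Markers of other cell types were also summed, and their part in the proliferin values was not tested. Macrophage and leukocyte markers, 8 in the list, summed to 47.6 to 51.7 CPM in cells alone, 29.0 to 31.9 CPM in WT coculture and 35.0 to 36.1 CPM in sgPrrx1 coculture of 168FARN. Of 3 tested there, 1 rose and 2 fell in each coculture against alone, where 64.1% and 49.7% of all genes passed. Csf1r, the receptor of a macrophage growth factor, was at 0.348 ± 0.105 CPM in cells alone, 1.24 ± 0.154 CPM with WT fibroblasts and 1.39 ± 0.218 CPM with sgPrrx1 fibroblasts, and rose against cells alone by 1.80 and 1.96 on the log2 scale (adjusted p = 9.48e-05 and 9.30e-05 in edgeR). Cd68 and Lyz2, a lysosomal protein and a lysozyme of macrophages, fell by 0.70 and 0.86 with WT and by 0.77 and 0.35 with sgPrrx1 fibroblasts. From WT to sgPrrx1 coculture, where 60.0% of all genes passed, Lyz2 rose by 0.51 (adjusted p = 3.48e-05 in edgeR) and none fell. Ptprc, the leukocyte marker, was at 0 in the 9 libraries.

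In LLC1 these markers summed to 16.0 to 17.4 CPM in cells alone, 36.6 to 38.6 CPM in WT coculture and 36.6 to 64.9 CPM in sgPrrx1 coculture, so that both cocultures lay above cells alone, as for the proliferin sum. Most of it was Cd68, at 15.8, 15.7 and 17.0 CPM in cells alone, 36.1, 35.9 and 37.7 CPM with WT fibroblasts and 38.5, 36.0 and 63.6 CPM with sgPrrx1 fibroblasts, the highest value being that of replicate 3. It rose by 1.18 (adjusted p = 0.0124 in edgeR) and 1.51 (adjusted p = 0.0105) on the log2 scale against cells alone, and 1 of the 2 markers tested passed in each, where 8.83% and 4.32% of all genes did. The alternatives called 0 to 2 of these markers in WT coculture and 0 to 1 in sgPrrx1 coculture. Adgre1, Itgam and Tyrobp were at 0 in the 9 libraries, and Ptprc had at most 3 counts.

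Endothelial markers, of the cells on which proliferins act, summed to 4.42 to 5.02 CPM in cells alone, 8.88 to 9.88 CPM in WT coculture and 7.70 to 9.18 CPM in sgPrrx1 coculture of 168FARN. Of 5 tested there, 1 rose and 1 fell in WT coculture against alone (64.1% of all genes passed), 1 rose in sgPrrx1 coculture against alone (49.7%), and 1 rose and 1 fell in sgPrrx1 against WT coculture (60.0%). Cdh5, the cadherin of endothelial cells, rose by 4.35 (adjusted p = 3.29e-08 in edgeR) and 3.75 (adjusted p = 2.23e-07) on the log2 scale against cells alone, and fell by 0.60 (adjusted p = 0.00681) from WT to sgPrrx1 coculture. Vwf, the von Willebrand factor gene, fell by 0.56 (adjusted p = 0.0344 in edgeR) with WT fibroblasts against alone and rose by 0.73 (adjusted p = 0.0104) from WT to sgPrrx1 coculture. In LLC1 the sums were 2.13 to 3.24, 7.60 to 10.1 and 1.85 to 3.40 CPM, and of 3 tested 1 rose and 1 fell in WT coculture against alone, where 8.83% of all genes passed, and in either of the other comparisons 0 passed in edgeR and 1 in DESeq2, with Kdr at an unadjusted p of 0.0246 for sgPrrx1 coculture against alone and 3.45e-05 between the cocultures. From LLC1 alone to WT coculture Vwf fell by 2.57 on the log2 scale (adjusted p = 0.0215 in edgeR). The alternatives called 0 to 2 endothelial markers in that comparison. Kdr, a receptor of vascular endothelial growth factor, was at 0.0123 ± 0.0213 CPM in LLC1 alone, 6.04 ± 0.497 CPM with WT fibroblasts and 0.115 ± 0.113 CPM with sgPrrx1 fibroblasts. Its place among the genes tested rests on WT coculture, so its changes and p-values are a description. Emcn was at 0 in all libraries of both lines. Epithelial markers summed to 323 to 345, 360 to 388 and 417 to 422 CPM in 168FARN, nearly all of it Krt8, and to at most 0.755 CPM in LLC1. Of 3 tested in 168FARN, 3 rose in WT coculture against alone, 1 rose in sgPrrx1 coculture against alone, and 1 rose and 1 fell in sgPrrx1 against WT coculture. Krt8 rose by 0.17 from WT to sgPrrx1 coculture (adjusted p = 0.000998 in edgeR), and Cldn4 was at -0.86 (adjusted p = 0.0737). Krt19 had reads in WT coculture only and passed the filter on low counts through that group. Its rise and fall within these counts are therefore a description. Krt18, the 1 tested in LLC1, was higher with WT fibroblasts than alone, by 4.75 on the log2 scale. It passed the filter on low counts through WT coculture, so this is a description. The alternatives called 0 to 2 epithelial markers there. Keratinocyte markers summed to at most 2.02 CPM in 168FARN and 2.69 CPM in LLC1.

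Genes near the copies on chromosome 13 were chosen after their values were seen, so they are given as a description. In 168FARN the ratio of mean CPM in sgPrrx1 to WT coculture was between 0.676 and 1.02 for Heatr1, Lgals8, Ero1lb, Gpr137b-ps, Gpr137b and Lyst. Lgals8, at 49.3, 56.3 and 57.5 CPM in cells alone, WT and sgPrrx1 coculture, had the order of the proliferin sum with far smaller steps. Nid1, which encodes the basement membrane protein nidogen, was at 0.198 CPM in cells alone, 30.1 CPM with WT fibroblasts and 1.80 CPM with sgPrrx1 fibroblasts, the pattern of most fibroblast markers. In LLC1 the ratios of these genes to cells alone were between 0.655 and 1.11 in WT coculture. In sgPrrx1 coculture they were between 0.634 and 1.24.

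Among the genes whose pattern was most like that of the summed copies over the 9 libraries of 168FARN, by Pearson's r of log2 CPM over 10876 genes, were Mettl7b (r = 0.998), Ifi44 (0.997), Ank (0.997) and Grem1 (0.997), and Prl8a9 was at rank 9 (0.996). Ifi44, an interferon-induced gene, was at 28.8 ± 1.85, 56.7 ± 0.869 and 113 ± 1.94 CPM in cells alone, WT and sgPrrx1 coculture, and Grem1, a secreted antagonist of bone morphogenetic proteins, at 599 ± 1.31, 769 ± 8.99 and 962 ± 11.1 CPM. In LLC1, over 11001 genes, they included Rbm4 (0.994), Angptl4 (0.992), Acsbg1 (0.991) and Atg9b (0.990). Angptl4, a secreted inhibitor of lipoprotein lipase, was at 1.89 ± 0.0466, 17.6 ± 1.03 and 20.2 ± 5.99 CPM, with sgPrrx1 replicate 3 included. The 9 points of a line fall into its 3 groups and share their scaling, so the correlations are a description.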

How the data were processed

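The authors deposited raw read counts per gene symbol, 1 table per line. Per the study's methods, 100 bp paired reads were trimmed with Trimmomatic, aligned to mm10 with STAR and counted with HTSeq; the annotation, strand setting and treatment of reads that map to several places are not given in the sources used here, nor is it clear whether a batch correction described for other samples was applied. No replicates agreed within sampling noise, with a chi-square per degree of freedom of 10.6 or more in 168FARN and 26.5 or more in LLC1.

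Groups and replicate numbers came from the labels. The counts were fitted with edgeR 4.0.16 (R 4.3.3): filterByExpr (13540 genes kept in 168FARN and 12873 in LLC1), TMM scaling, 1 fit over the 9 libraries of a line, two-sided quasi-likelihood tests and Benjamini-Hochberg adjustment over all genes, threshold 0.05. The sum of the copies replaced their 4 rows in a second fit. CPM values were computed with TMM-scaled totals, and intervals cover 95%. Ratios of counts have exact intervals for counting error only. Likeness used log2 of CPM plus 0.5 among genes with a mean of at least 100 counts. The code was tested on simulated data.

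Alternatives were RLE and no scaling, DESeq2 1.42.0, limma 3.58.1 (voom with quality weights), no filter, a minimum of 10 counts per library, a replicate block, only the groups compared, each library left out, and Prl2c2 alone in place of the sum; adding Prl2c3 and Prl2c4 was chosen after seeing the data. The text names the copies, up to 3 genes per list and comparison with the largest change past the threshold, genes whose values bear on a result, and genes among the 5 most alike per line, of which some are not reported here. Members and lists were chosen with earlier results of these data known. Transcripts came from the GENCODE set of an older build and were used by name only.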

Additional observations from a re-analysis of the deposited data

Results flagged for a closer look

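The change of the summed Prl2c copies from WT to sgPrrx1 coculture differed between the 168FARN and LLC1 experiments by 1.34 on the log2 scale (SE 0.150), with an adjusted p of 2.35e-05 by the interaction term in edgeR over all 18 libraries. The sum was higher in 3 of 3 sgPrrx1 libraries than in any WT library in 168FARN, and the cocultures overlapped in LLC1. The value ran from 1.24 to 1.44 over 23 alternatives, and the highest adjusted p was 0.000188. Cancer line, fibroblast type and table differ together between the experiments and cannot be told apart.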

How the results depend on the processing

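In 168FARN the summed copies kept their direction and passed under all 18 alternatives of each comparison, at 1.12 to 1.22 in WT coculture against alone, 2.41 to 2.51 in sgPrrx1 coculture against alone and 1.25 to 1.35 in sgPrrx1 against WT coculture. In LLC1 sgPrrx1 against WT coculture ran from -0.14 to 0.07, with adjusted p values from 0.410 to 0.997. The LLC1 sums against cells alone, described without a test, ran from 3.06 to 3.41 in WT coculture and, with Prl2c2 in place of the sum, the sgPrrx1 value was 2.98 against 3.24. In the fit with a replicate block the sums were 1.19, 2.50 and 1.30 in 168FARN, -0.01 in LLC1 sgPrrx1 against WT coculture and 1.33 for the difference between the lines, and no call on a copy or the sum changed. Deviations of same-numbered libraries correlated at 0.0389 on average in 168FARN and 0.246 in LLC1, where the lowest pair was at -0.151, so the numbers were not taken to pair the samples. The block moved the genes called in LLC1 sgPrrx1 against WT coculture from 7 to 2. Calls over all genes depended on the setting in LLC1, from 273 to 7549 in WT coculture against alone, 27 to 6183 in sgPrrx1 coculture against alone and 2 to 4681 between cocultures, and stayed within 1.5 times in 168FARN. Prl2c3 from WT to sgPrrx1 coculture of 168FARN passed with voom (adjusted p = 0.00726) and with only the 2 groups compared (adjusted p = 2.79e-07). The LLC1 copies rested on 272 counts in cells alone, which limits the precision of their ratios.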

Other observations

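Other pairs of near-identical genes in the 168FARN table had reads that sat on one symbol or the other depending on the library. Atp6v0c, a subunit of the proton pump of lysosomes, had 13122, 16887 and 12767 counts alone, 16810, 16436 and 1015 in WT coculture and 604, 664 and 14119 in sgPrrx1 coculture. Added to its copy Atp6v0c-ps2 it was at 239 to 242 CPM in all 6 cocultures. These genes were chosen after their values were seen.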
